A study of Drosophila melanogaster with 12 samples.

Results

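Transcript levels in the midgut of dsxRNAi females were compared with those of dsxRNAi males, by counting RNA sequencing reads per gene. The comparison used the 6 libraries of the 12 in the series in which dsx was the target of RNA interference, 3 of each sex, and all 9686 genes that passed an expression filter, of 17558 rows in the table. The study concerns Myc and lipid handling in the male and female gut, by its title, and its design text asks what dsxRNAi does in each sex. Both dsxRNAi groups carried 1 copy each of the hairpin construct against dsx, the mex1-Gal4 driver and tub-Gal80ts. The mex1 promoter drives Gal4 in the absorptive enterocytes, so other midgut cells were not targeted, and Gal80ts, expressed everywhere, holds Gal4 silent at the low temperature. The flies were virgins, kept for 6 days at 18 degrees C and then for 4 days at 29 degrees C, and were dissected as adults of 10 days. Control females and control males, with 3 libraries each, had the same driver, the same tub-Gal80ts and the same temperature shift, with UAS-GFP in place of the hairpin. On the X chromosome all 4 groups are labelled with y[1] v[1] over w[*]. Males have a single X, and which of the 2 it was is not stated. The labels name neither the number of guts pooled in a library nor separate crosses, so the p-values measure the spread between these libraries, which may be partly technical.

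In Drosophila somatic cells with a pair of X chromosomes make the RNA-binding protein Sxl, which directs the splicing of tra, and Tra in turn directs the splicing of dsx into its female form. Without Tra, dsx is spliced into its male form, and both forms encode transcription factors that differ at one end. Sxl also blocks the protein Msl-2 in females, so that the dosage compensation complex, with the noncoding RNAs roX1 and roX2, forms in males and raises transcription from their single X. The adult midgut epithelium is made of enterocytes, which digest and absorb food, hormone-secreting enteroendocrine cells and progenitors.

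Levels are CPM, library-size-adjusted counts scaled by the trimmed mean of M values, differences are log2 values of dsxRNAi females minus dsxRNAi males with their standard error (±), and a call needed a p under 0.05 after Benjamini-Hochberg adjustment in edgeR's quasi-likelihood test over all 9686 genes. Total counts were 39137615 to 42425002 in the dsxRNAi female libraries and 36212113 to 45068874 in the dsxRNAi male libraries. The 10 most abundant genes took 17.4% to 18.3% of the counts in dsxRNAi females and 20.5% to 21.1% in dsxRNAi males. In a principal component analysis of the 6 libraries the first component, with 48.9% of the variance, separated the sexes. The second, with 19.9%, set dsxRNAi male library 2 apart from its replicates, and this library also differed most from them in counts (chi-square per degree of freedom of 145 and 116, against 24.9 between dsxRNAi males 1 and 3). Differences that moved by over 1.5 times in fold without it are given with and without it. Since whole midguts were used, fewer cells of a type and less RNA per cell cannot be told apart.

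The level of dsx, the target of the hairpin, did not show in females the lowering that their label names. Its level in the females labelled dsxRNAi overlapped that of control females, a difference that was not tested, and it was lower in those females than in the males labelled dsxRNAi. The gene (3R, 7924323 to 7967408, build dm6 as all positions here) had 16.5, 22.3 and 19.9 CPM in dsxRNAi females, against 35.2, 43.1 and 41.2 CPM in dsxRNAi males. Every female library lay below every male library (log2 -1.03 ± 0.13, adjusted p = 0.000571). An exact two-sided permutation test gave p = 0.1, the smallest p that 3 against 3 libraries allow. Control females had 18.6, 20.3 and 21.3 CPM, within the range of the females labelled dsxRNAi, and control males had 70.1, 59.1 and 53.2 CPM, all above the males labelled dsxRNAi. The groups are called dsxRNAi females and dsxRNAi males below by their labels alone, and no result below is a measure of lowered dsx in females. The controls averaged 20.1 ± 1.36 CPM in female controls and 60.8 ± 8.58 CPM in male controls (mean ± SD, n = 3 libraries each, as for all control levels below), a log2 difference of -1.60, and the test of whether the sex difference itself differed between the genotypes, called the interaction below, did not pass the threshold (log2 0.57, adjusted p = 0.172). The counts sum the male and female splice forms, reads of the hairpin can be counted with the gene, and lds overlaps it on the other strand (log2 1.07, adjusted p = 0.0277), so reads of the pair are separated only if strand was used in counting.

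The labelled sexes and tissue were checked next. The 12 Y-linked genes of the list other than FDY held 0 counts in every dsxRNAi female library and 0 to 1 in the dsxRNAi males. With almost no counts in either sex, these genes cannot tell the labelled sexes apart. FDY itself is a Y-linked gene with an autosomal near-copy, and it was called higher in dsxRNAi females (15.9, 17.5 and 17 CPM in dsxRNAi females, against 13.8, 12 and 14.1 CPM in dsxRNAi males; adjusted p = 0.0302, lost without dsxRNAi female library 2 or 3 or dsxRNAi male library 1 or 2), so its reads cannot be assigned to the Y. The enterocyte gene mex1 stood at 195, 197 and 225 CPM in dsxRNAi females, against 247, 256 and 212 CPM in dsxRNAi males (log2 -0.21 ± 0.10, adjusted p = 0.192), with overlapping groups. The summed level of 20 enterocyte brush border and junction genes was 5799.5 to 6780 CPM in dsxRNAi females and 5640 to 6979 CPM in dsxRNAi males. Of these genes, cora, a septate junction protein, was called (207, 257 and 283 CPM in dsxRNAi females, against 185, 145 and 169 CPM in dsxRNAi males; log2 0.58 ± 0.14, adjusted p = 0.0175), but not without dsxRNAi female library 2, dsxRNAi female library 3 or dsxRNAi male library 2.

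The midguts of the 2 sexes differed in many genes under dsxRNAi, and most differences were small. Of the 9686 genes 1436 were called (14.8%), 752 of them higher in dsxRNAi females (7.76%) and 684 lower (7.06%). Only 234 of the called genes differed at least 2-fold, 90 higher and 144 lower, and 32 and 42 differed at least 4-fold. The median log2 difference over all tested genes was 0.01. Shares of gene lists called in either direction are given below to be read against the 14.8% of all tested genes. In 99.3% of the called genes the 3 libraries of one sex all lay above the 3 of the other, which was also true of 35.7% of all tested genes. The count fell to 637 without dsxRNAi female library 3 and to 671 without dsxRNAi male library 2. The number higher was 329 and 304 without these 2 libraries, 449 without dsxRNAi female library 2 and 494 without dsxRNAi male library 3, and the number lower was 308 without dsxRNAi female library 3 and 367 without dsxRNAi male library 2. A fit of only these 6 libraries called 498 genes higher. The share called differed by the level of a gene, with 4.40% of 1410 genes called at a mean log2 CPM of 0 or less and 22.0% of 1566 genes called between 6 and 8.

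Some genes that act above dsx were also called. Among 15 tested sex determination genes 3 were higher in dsxRNAi females, and dsx alone was lower (26.7% called). Sxl, the switch gene of the female state (X, 7074550 to 7098053), stood at 140.0, 170.4 and 164 CPM in dsxRNAi females, against 75.1, 69.5 and 79.4 CPM in dsxRNAi males (log2 1.08 ± 0.09, adjusted p = 4.47e-05). tra, its splicing target (3L), had 12.8, 10.3 and 11.8 CPM in dsxRNAi females, against 6.88, 7.93 and 7.8 CPM in dsxRNAi males (log2 0.62 ± 0.10, adjusted p = 0.00247). snf, a spliceosomal protein that takes part in Sxl splicing (X), had 27.2, 25.4 and 24.7 CPM in dsxRNAi females, against 18.5, 20.4 and 19.9 CPM in dsxRNAi males (log2 0.39 ± 0.07, adjusted p = 0.00287). In each of these genes the libraries of the 2 sexes did not overlap. Leaving out any 1 of the 6 libraries ended none of these 4 calls.

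The noncoding RNAs and some protein genes of the dosage compensation complex were lower in dsxRNAi females than in dsxRNAi males. Of 8 tested members 4 were lower in dsxRNAi females and none higher (50% called). roX1, one of its noncoding RNAs (X, 3857230 to 3862697), stood at 0.604, 0.466 and 0.943 CPM in dsxRNAi females, against 1250.2, 1063 and 1129.5 CPM in dsxRNAi males (adjusted p = 1.7e-11). Its summed counts were 83 in the 3 dsxRNAi female libraries and 124027 in the 3 dsxRNAi male libraries, a ratio of 1712 in favour of males with a 95% counting interval of 1381 to 2150. roX2, the other noncoding RNA (X, 11579065 to 11580432), had 0 counts in each dsxRNAi female library, against 232, 333 and 348 counts in the dsxRNAi males. The lower limit of the 95% counting interval of its ratio was 283 in favour of males. msl-2, the limiting protein of the complex (2L, 3462218 to 3466112), had 11.7, 9.11 and 10.1 CPM in dsxRNAi females, against 31.3, 31.5 and 31.8 CPM in dsxRNAi males (log2 -1.62 ± 0.12, adjusted p = 1.05e-05). msl-3, a chromodomain subunit (3L), had 11.1, 11.4 and 11.8 CPM in dsxRNAi females, against 15.5, 14.2 and 14.9 CPM in dsxRNAi males (log2 -0.38 ± 0.07, adjusted p = 0.00505). All 4 kept their call without each library in turn, and their interaction was not called (adjusted p from 0.548 to 0.912).

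**Figure D1:**
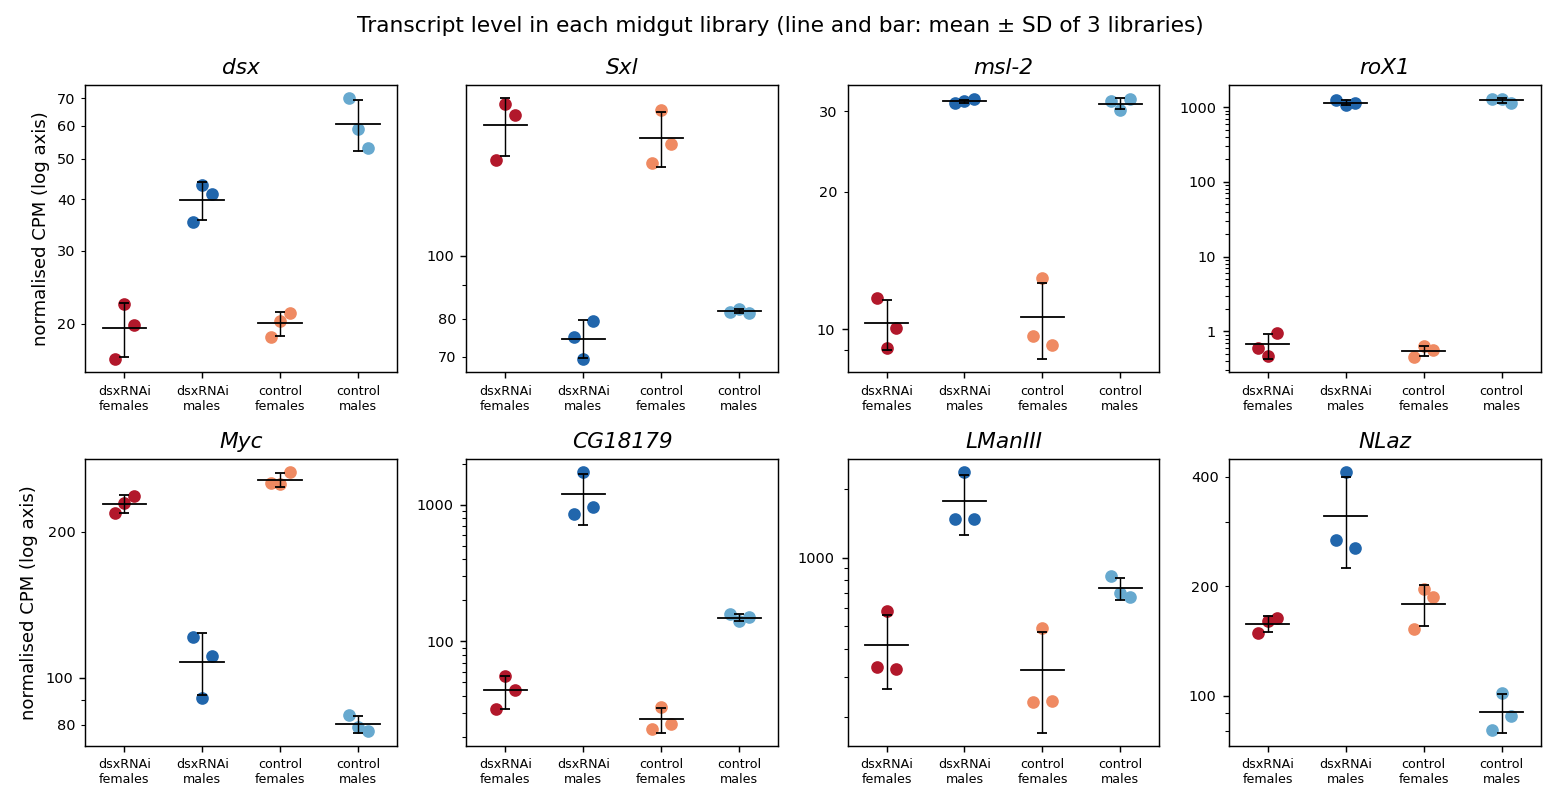
Normalised CPM (log axis, 1 panel per gene) of 8 genes in the 3 libraries of each group, with the mean and SD as line and bar. Sxl and Myc are higher and dsx, msl-2, roX1, CG18179, LManIII and NLaz lower in dsxRNAi females than in dsxRNAi males. In the controls NLaz stands the other way round.

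Yolk protein transcripts, which the female Dsx protein activates in the fat body, were found in dsxRNAi females and nearly absent in dsxRNAi males. Yp1 (X, 10053811 to 10055498) had 1284, 420 and 366 counts in the dsxRNAi female libraries, against 1, 2 and 1 in the males, a ratio of 452 with a 95% counting interval of 176 to 1659 (edgeR adjusted p = 0.000391). Yp2 and Yp3, its X-linked relatives, summed to 566 and 571 counts in dsxRNAi females and to 16 and 41 counts in dsxRNAi males (ratios of 30.9 and 12.2). Library 1 of the dsxRNAi females held the most of Yp1 (29.8 CPM, against 10.3 and 9.08 CPM in the other two). The same library held 114 counts of 3 vitelline membrane genes, made in the ovary, while the other dsxRNAi libraries held 0 to 2. The part of other tissue in the yolk values was not tested, but Yp1 kept its call without that library, with a fitted log2 difference of 7.92 in place of 8.68. In controls Yp1 stood at 48.9 ± 4.43 CPM in female controls and 0.0234 ± 0.0405 CPM in male controls, and its interaction was not called (log2 -2.20, adjusted p = 0.766). The other 4 tested genes of the list of described Dsx targets were not called.

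The X chromosome held more than its share of the genes that were higher in dsxRNAi females. On the X 277 of 1590 tested genes were higher (17.4%) and 129 lower (8.11%), while on the 4 large autosome arms 451 of 7808 were higher (5.78%) and 532 lower (6.81%). The X thus carried 16.4% of the tested genes and 36.8% of the calls higher in females. The X-linked differences were small, since 231 of the 277 were under 2-fold and their median log2 difference was 0.45. The median over all tested X genes was 0.08, against -0.02 on 2L and 0.01 or less on 2R, 3L and 3R and 0.07 on chromosome 4. Of the 277 genes 190 were also higher in control females, whose libraries are separate, and 5 had a called interaction. Without dsxRNAi female library 3 the count higher on the X was 174, and without dsxRNAi male library 2 it was 167. The count lower on the X was 79 and 83 without these 2 libraries. On an autosome arm the counts moved as well: the 140 genes higher on 3R became 52 and 42 without the same libraries, and 64 and 87 without dsxRNAi female library 2 and dsxRNAi male library 1, and 90 without dsxRNAi male library 3. On chromosome 4, with 82 tested genes, 7 were higher and 7 lower.

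**Figure D2:**
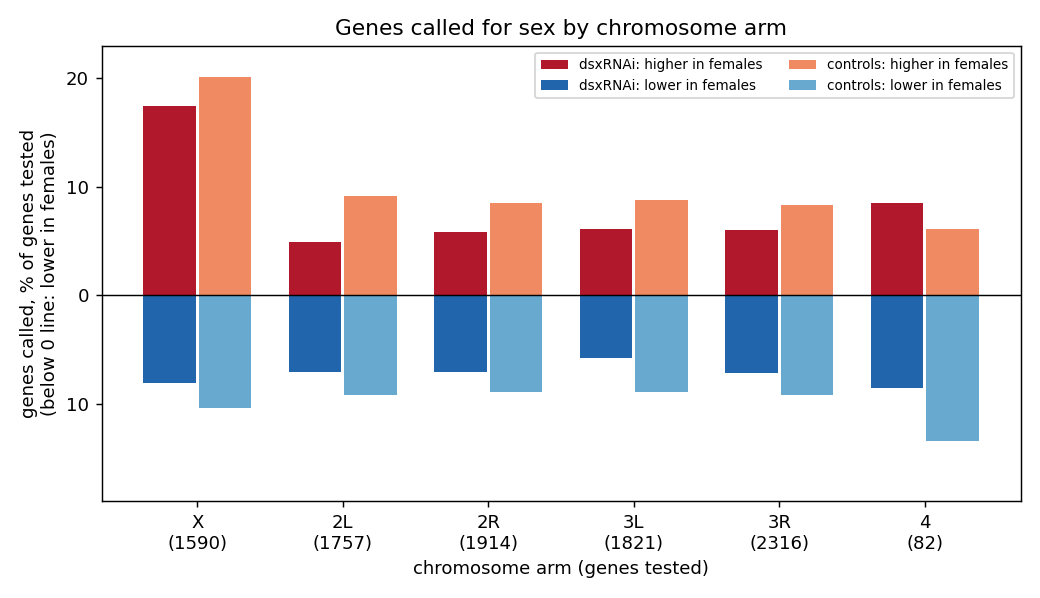
Share of tested genes called higher (above 0) or lower (below 0) in females on each chromosome arm, under dsxRNAi (dark bars) and in controls (light bars), with the number of genes tested under each arm. The X stands out by its share of genes higher in females, 17.4% under dsxRNAi and 20.1% in controls.

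Several genes with the largest female excess were X-linked. Cngl, a gene related to cyclic nucleotide-gated channels (X, 15386038 to 15441252), had 981, 1028 and 1043 counts in the dsxRNAi female libraries, against 0, 2 and 2 in the males, a ratio of 666 with a 95% counting interval of 260 to 2446. Neto, known as an auxiliary subunit of glutamate receptors at the larval nerve-muscle junction (X), had 3.37, 3.73 and 3.8 CPM in dsxRNAi females, against 0.169, 0.333 and 0.443 CPM in dsxRNAi males (log2 3.52 ± 0.26, adjusted p = 1.05e-05). Control levels of Neto were 3.79 ± 0.118 CPM in female controls and 0.352 ± 0.0607 CPM in male controls. CR44690, a noncoding RNA (X, 2175817 to 2180816), had 121, 145 and 142 CPM in dsxRNAi females, against 13.1, 13.5 and 14.6 CPM in dsxRNAi males (log2 3.31 ± 0.15, adjusted p = 1.83e-07). It overlaps Cyp4ae1, Cyp4d2 and CR45479 on the other strand. Cyp4ae1 was also higher in dsxRNAi females (log2 0.88), and Cyp4d2 (log2 -0.70) and CR45479 (log2 -1.18) were lower. Another noncoding RNA of the X, CR43496, had 5.2, 5.33 and 4.12 CPM in dsxRNAi females, against 0.733, 0.616 and 1.24 CPM in dsxRNAi males (log2 2.51 ± 0.24, adjusted p = 0.000104). Cngl, Neto, CR44690 and CR43496 were also higher in females in the controls, and no interaction was called for any of them.

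Other genes among the 12 largest female excesses lay on several chromosomes. CG30289, whose role is not stated here (2R), had 8.57, 8.03 and 10.8 CPM in dsxRNAi females, against 2.34, 2.62 and 2.69 CPM in dsxRNAi males (log2 1.84 ± 0.25, adjusted p = 0.00088). CG15544 (3R), also without a stated role, had 12.5, 11.8 and 15.6 CPM in dsxRNAi females, against 4.31, 2.33 and 4.67 CPM in dsxRNAi males (log2 1.82 ± 0.26, adjusted p = 0.00139). Both were higher in control females as well (log2 3.13 and 3.98), and both kept the call under dsxRNAi without each library. Muc14A, a mucin-like gene (X), had 6.92, 10.8 and 6.82 CPM in dsxRNAi females, against 1.18, 2.18 and 2.45 CPM in dsxRNAi males (log2 2.07 ± 0.39, adjusted p = 0.0068), beside 4.55 ± 0.656 CPM in female controls and 2.69 ± 1.33 CPM in male controls, where it was not called (adjusted p = 0.185). Drsl2, of the family of the antifungal peptide drosomycin (3L), had 17, 7.46 and 26.4 CPM in dsxRNAi females, against 2.9, 0.718 and 3.28 CPM in dsxRNAi males (log2 2.89 ± 0.64, adjusted p = 0.0182). It was the only called gene among 6 tested antimicrobial peptides, and its call was lost without dsxRNAi female library 3. PPO2, a prophenoloxidase of blood cells (2R), had 1.14, 3.81 and 2.8 CPM in dsxRNAi females, against 0.761, 0.282 and 0.561 CPM in dsxRNAi males (log2 2.27 ± 0.58, adjusted p = 0.0279), a call that was lost without dsxRNAi female library 2 or 3 or dsxRNAi male library 2 or 3. Of these 5 genes CG15544 had a called interaction (log2 -2.16, adjusted p = 0.0464), which was lost without 10 of the 12 libraries left out in turn and kept without control female library 2 or dsxRNAi male library 2.

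Genes with a large male excess outside the dosage compensation complex had various roles. CG18179, a serine protease of the digestive list (3L, 9639271 to 9640140), had 31.8, 56 and 44.3 CPM in dsxRNAi females, against 862, 1748 and 964 CPM in dsxRNAi males (log2 -4.76 ± 0.32, adjusted p = 2.19e-05). The rule that named the largest differences required libraries without overlap. Of the male libraries of CG18179, dsxRNAi male library 2 was the highest. The peptidoglycan amidase gene PGRP-SC1a (2R, 8709733 to 8710320) had 25.7, 22.1 and 18.7 CPM in dsxRNAi females, against 207, 346 and 129 CPM in dsxRNAi males (log2 -3.36 ± 0.31, adjusted p = 0.000323). Its neighbour and near-identical copy PGRP-SC1b had 27, 22 and 23 CPM in dsxRNAi females, against 184, 301 and 114 CPM in dsxRNAi males (log2 -3.06 ± 0.29, adjusted p = 0.000324), and reads may be split between the pair. Among the others, CG34316, CG13078 and CG9914 have no role stated here, and their log2 differences were -3.62, -3.33 and -2.51. Without dsxRNAi male library 2 the difference of CG34316 was -2.63, and without dsxRNAi female library 2 that of CG13078 was -4.05. Of these 3, CG13078 lost its call without dsxRNAi female library 1 or 3 or dsxRNAi male library 1 or 3.

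Myc, the transcription factor that drives ribosome production and cell growth (X, 3373159 to 3391697), was higher in females under dsxRNAi. It stood at 218, 229 and 237 CPM in dsxRNAi females, against 122, 90.7 and 111 CPM in dsxRNAi males, with no overlap (log2 1.08 ± 0.10, adjusted p = 6.66e-05). In the controls the levels were 256 ± 8.64 CPM in female controls and 80.3 ± 3.19 CPM in male controls (log2 1.67), and the smaller difference under dsxRNAi did not pass the interaction test (log2 -0.59, adjusted p = 0.0704). Myc overlaps CG12535 on the other strand, which was also called (log2 1.22, adjusted p = 0.0458). Of 27 genes of the Myc network and nucleolar growth, 10 were called higher in dsxRNAi females and 0 lower, a share of 37% against 14.8% of all tested genes. All 27 had a log2 difference above 0, with a median of 0.30, against 0.01 over all genes. In controls 25 of the 27 were higher in females, with a median of 0.81, and the interaction was called for 0 of the 27. The called number was 2 without dsxRNAi male library 2, 3 without dsxRNAi female library 1 and 5 without dsxRNAi female library 2 or dsxRNAi female library 3. CG4364, the fly form of the nucleolar protein pescadillo (2L), had 235, 222 and 240.3 CPM in dsxRNAi females, against 179, 118 and 161 CPM in dsxRNAi males (log2 0.61 ± 0.14, adjusted p = 0.0128). The nucleolar genes peng and Ns2 were also called, with log2 differences of 0.44 and 0.33, but each lost its call without dsxRNAi female library 1 or dsxRNAi male library 2.

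Few cytoplasmic ribosomal protein genes passed the test. Of 81 tested genes 3 were higher in dsxRNAi females and 0 lower, a share of 3.7% that lies below the 14.8% of all genes. A log2 difference above 0 was found in 75 and below 0 in 6, and the median was 0.21. Their summed level was 81685 to 86666 CPM in dsxRNAi females and 66360 to 79735 CPM in dsxRNAi males, without overlap. The control contrast called 77 of the 81 higher in females, with a median of 0.61. In the interaction 1 of the 81 was called. RpS14b, a small subunit protein with a near-identical neighbouring copy (X), had 333, 354 and 336 CPM in dsxRNAi females, against 228, 206 and 191 CPM in dsxRNAi males (log2 0.71 ± 0.10, adjusted p = 0.00109), and it kept its call without each library. RpL4 and RpL37a of the large subunit were called (log2 0.41 and 0.36) but lost the call when any library other than dsxRNAi male library 1 was left out. The list count was 9 in DESeq2 and 1 with the replicate number as a block, and it was 1 without dsxRNAi female library 1, dsxRNAi female library 2, dsxRNAi female library 3, dsxRNAi male library 2 or dsxRNAi male library 3 and 5 without dsxRNAi male library 1. Translation initiation factors had 9 of 35 higher and 0 lower (25.7%, against 14.8% of all genes), with a median of 0.13. The eIF3 subunit gene eIF3b (2R) had 413, 403 and 426 CPM in dsxRNAi females, against 332, 283 and 321 CPM in dsxRNAi males (log2 0.41 ± 0.08, adjusted p = 0.00638), and eIF3k, eIF3l and eIF3g1 of the same complex were higher by 0.35 to 0.38 on the log2 scale. Their list count was 5 without dsxRNAi female library 3 or dsxRNAi male library 2.

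**Figure D3:**
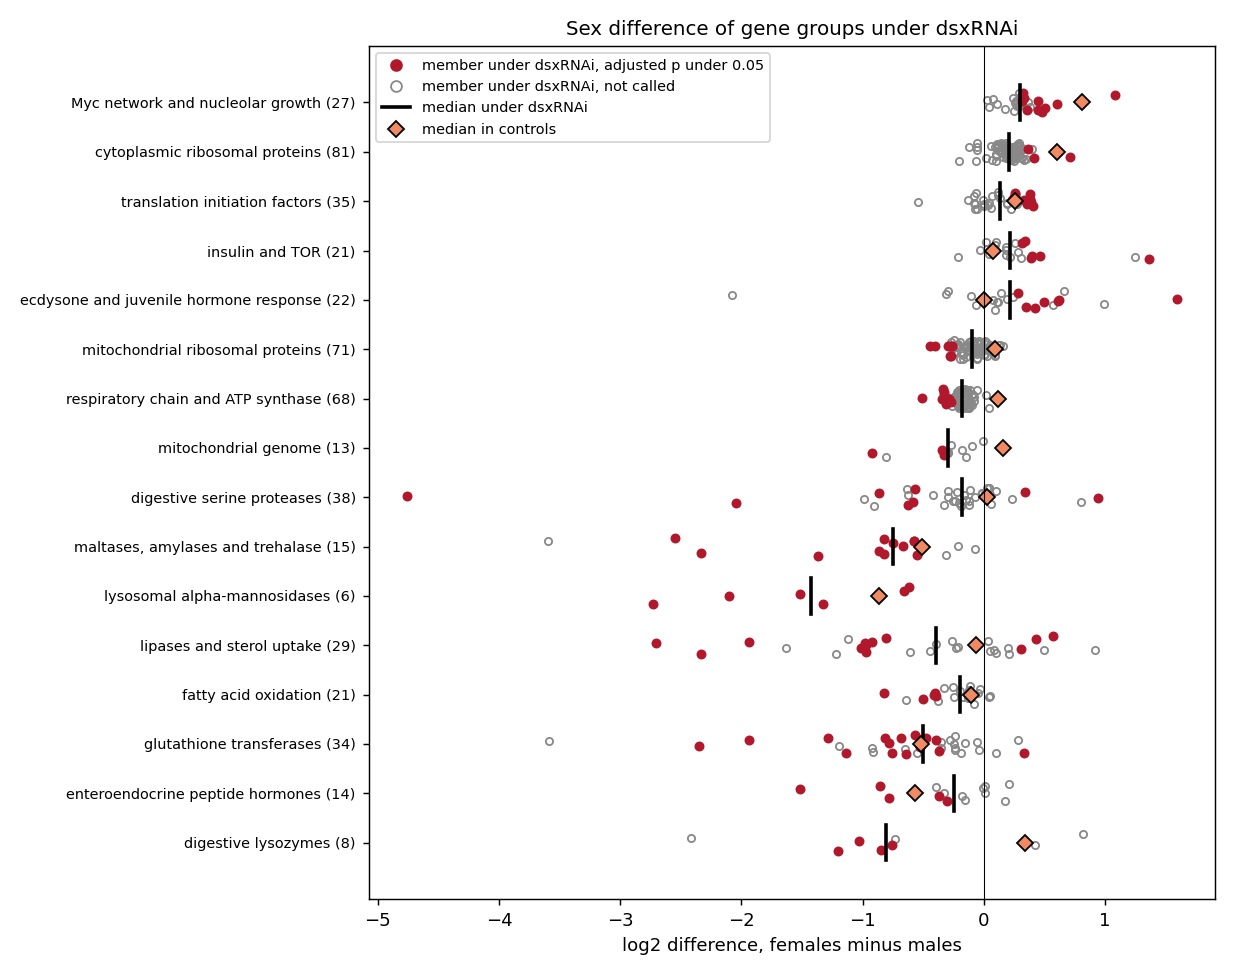
Log2 difference of dsxRNAi females minus dsxRNAi males (horizontal axis) for each tested member of 16 gene groups, with the number of members in brackets. Filled points are called members, black bars the group medians under dsxRNAi and diamonds the medians of the same groups in controls. The medians of the Myc network (0.30), ribosomal proteins (0.21) and initiation factors (0.13) lie right of 0, and those of the mitochondrial, sugar-cleaving and glutathione transferase groups lie left of it.

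Mitochondrial genes were called no more often than all genes together in the larger lists, and those called were lower in dsxRNAi females. Of 68 respiratory chain or ATP synthase genes tested, 10 were lower and 0 higher (14.7%, near the 14.8% of all genes), but 66 had a log2 difference under 0, with a median of -0.18. The control median was 0.12, with 2 genes higher in females and 0 lower. The interaction was called for 0 of the 68. ND-15 of complex I (2L) had 56.8, 53.1 and 54.7 CPM in dsxRNAi females, against 76.1, 86.4 and 72.6 CPM in dsxRNAi males (log2 -0.51 ± 0.08, adjusted p = 0.00243). Several genes overlap ND-15 on either strand. ND-B14.5A, also of complex I (X), had 47.4, 50.2 and 44.2 CPM in dsxRNAi females, against 60.7, 63.9 and 55.2 CPM in dsxRNAi males (log2 -0.34 ± 0.07, adjusted p = 0.00785). The list count was 2 without dsxRNAi female library 3, 3 without dsxRNAi male library 2 and 6 without dsxRNAi male library 1. All 13 genes of the mitochondrial genome had a log2 difference under 0 (median -0.30, against 0.15 in controls), and 4 were called lower (30.8%). The clearest of them, mt:ND2 of complex I, had 23.7, 26.3 and 21.3 CPM in dsxRNAi females, against 52.2, 44.2 and 38.8 CPM in dsxRNAi males (log2 -0.92 ± 0.13, adjusted p = 0.00113). It stood the other way round in controls, at 34.5 ± 5.94 CPM in female controls and 24.5 ± 0.624 CPM in male controls, and its interaction was called (log2 -1.42, adjusted p = 0.00311). The other 3, mt:ATPase6, mt:ND4 and mt:Cyt-b, were called with log2 differences of -0.33 to -0.35 and lost the call whichever library was left out, except that mt:ND4 kept it without dsxRNAi female library 1. The libraries were made from polyadenylated RNA, so mitochondrial transcripts were counted as far as they carried poly-A. Mitochondrial ribosomal proteins had 7 of 71 lower and 0 higher (9.86%, under the 14.8% of all genes), with a median of -0.10, and mRpL22 (X) was 24.5, 27.1 and 24.6 CPM in dsxRNAi females, against 32.9, 35.7 and 32.2 CPM in dsxRNAi males (log2 -0.41 ± 0.07, adjusted p = 0.00258). Their count was 1 without dsxRNAi female library 3, 2 without dsxRNAi male library 2, 3 without dsxRNAi male library 1 and 4 without dsxRNAi female library 2.

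Enzymes that split starch, sugars and glycans were often lower in dsxRNAi females. Among 15 maltases, amylases and trehalase 11 were lower and 0 higher, a share of 73.3% against 14.8% of all genes, and all 15 had a log2 difference under 0. The median was -0.75, and -0.51 in controls, where 7 were lower. The summed level of the group was 46914 to 50019 CPM in dsxRNAi females and 66448 to 105684 CPM in dsxRNAi males, and dsxRNAi male library 2 was the highest. Amy-p, one of a pair of near-identical alpha-amylase genes (2R, 17118636 to 17120303), had 11933, 13330.4 and 12872 CPM in dsxRNAi females, against 18296, 27948 and 21335 CPM in dsxRNAi males (log2 -0.83 ± 0.16, adjusted p = 0.00705). Its copy Amy-d differed by a like amount (log2 -0.87), and reads may be split between them. Mal-A3, a maltase (2R), had 555, 761 and 579 CPM in dsxRNAi females, against 1389, 2248 and 1259 CPM in dsxRNAi males (log2 -1.37 ± 0.19, adjusted p = 0.00109). Amyrel, an amylase-related glucosidase (2R), had 28.3, 40.9 and 35.9 CPM in dsxRNAi females, against 126, 374 and 114 CPM in dsxRNAi males (log2 -2.55 ± 0.45, adjusted p = 0.00711), which became -1.78 without dsxRNAi male library 2. In the controls Amyrel had 68.3 ± 19.3 CPM in female controls and 80.8 ± 2.22 CPM in male controls and was not called (adjusted p = 0.737), but the interaction was not called either (log2 -2.31, adjusted p = 0.133). Without dsxRNAi female library 3 the called number of the group was 7.

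All 6 lysosomal alpha-mannosidases, which trim glycans in the lysosome, were called lower in dsxRNAi females, with a median of -1.42. LManIII (2L) had 333, 584 and 326 CPM in dsxRNAi females, against 1476, 2381 and 1473 CPM in dsxRNAi males (log2 -2.10 ± 0.35, adjusted p = 0.00422). LManVI, more abundant in CPM, had 2063, 3293 and 1899 CPM in dsxRNAi females, against 5962, 9111 and 5748 CPM in dsxRNAi males (log2 -1.52 ± 0.33, adjusted p = 0.0134). The female libraries of both lay below all male libraries, and dsxRNAi female library 2 was the highest female one. In controls 2 of the 6 were lower, with a median of -0.86. LManIII and LManI kept the call without each library, while the count was 2 without dsxRNAi female library 3 and 3 without dsxRNAi male library 2. Of 15 glycolysis and lactate genes 5 were lower and 0 higher (33.3%). ImpL3, lactate dehydrogenase (3L), had 62.5, 67.2 and 74.4 CPM in dsxRNAi females, against 132, 159 and 115 CPM in dsxRNAi males (log2 -0.99 ± 0.11, adjusted p = 0.000299) and kept its call without each library. Hex-A, Pgi and Pgk, which act earlier in glycolysis, had log2 differences of -0.41, -0.69 and -0.34, and the list count was 1 without dsxRNAi female library 3 or dsxRNAi male library 2, 2 without dsxRNAi female library 2 and 3 without dsxRNAi female library 1.

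Digestive serine proteases differed in both directions. Of 38 tested genes 6 were lower in dsxRNAi females and 2 higher (21.1%), with a median of -0.18, against 0.02 in controls. The interaction was called for 2 of the 38. Their summed level was 147014 to 170736 CPM in dsxRNAi females and 189992 to 206995 CPM in dsxRNAi males. CG18180, next to CG18179 inside the span of fry on the other strand (3L, 9641013 to 9641913), had 1680.5, 1662 and 1616 CPM in dsxRNAi females, against 5643, 9066 and 5796 CPM in dsxRNAi males (log2 -2.05 ± 0.19, adjusted p = 7.16e-05). fry itself was not called (log2 -0.06, adjusted p = 0.770). Jon99Ci, a Jonah protease with near copies beside it (3R), had 2654, 3131 and 2495 CPM in dsxRNAi females, against 4332, 6319 and 4462 CPM in dsxRNAi males (log2 -0.87 ± 0.23, adjusted p = 0.0267), a call lost without dsxRNAi female library 1 or 3 or dsxRNAi male library 2. Jon66Ci (3L) went the other way, with 565, 766 and 472 CPM in dsxRNAi females, against 292, 357 and 291 CPM in dsxRNAi males (log2 0.94 ± 0.20, adjusted p = 0.0101). The number lower was 2 without dsxRNAi female library 3 or dsxRNAi male library 2 and 3 without dsxRNAi female library 1, dsxRNAi female library 2 or dsxRNAi male library 3, and the number higher was 1 without dsxRNAi female library 1, dsxRNAi female library 2, dsxRNAi female library 3, dsxRNAi male library 2 or dsxRNAi male library 3.

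Lysozymes and peptidoglycan amidases were among the genes lower in dsxRNAi females, while the tested antimicrobial peptides went in both directions. Of 8 tested digestive lysozymes, which split bacterial cell walls, 4 were lower and 0 higher (50%, median -0.81, against 0.34 in controls). The interaction was called for 2 of the 8. LysB (3L, 1207371 to 1207981) had 23.4, 30.6 and 20.05 CPM in dsxRNAi females, against 51, 76.3 and 43.6 CPM in dsxRNAi males (log2 -1.21 ± 0.22, adjusted p = 0.00599). LysC and LysD, its neighbours and near copies, had log2 differences of -1.03 and -0.85, and mwh, whose span holds all 3, was also lower (log2 -1.10, adjusted p = 0.0147). The called number was 1 without dsxRNAi female library 1, dsxRNAi female library 3 or dsxRNAi male library 2. In the list of peptidoglycan recognition and Imd pathway genes 3 of 20 were lower and 1 higher (20%, against 14.8% of all genes). The lower ones were both PGRP-SC1 copies and pirk, a repressor of the pathway (2R). pirk had 13, 22.4 and 30.4 CPM in dsxRNAi females, against 151, 365 and 76.8 CPM in dsxRNAi males (log2 -3.17 ± 0.72, adjusted p = 0.0227; log2 -2.38 without dsxRNAi male library 2) and lost its call without any dsxRNAi female library or without dsxRNAi male library 2. cad, a homeobox gene of the posterior midgut that represses antimicrobial peptides there (2L), was the only one higher, with 88.1, 90.8 and 91.6 CPM in dsxRNAi females, against 74.3, 55.6 and 72 CPM in dsxRNAi males (log2 0.42 ± 0.10, adjusted p = 0.0141), and it lost its call without dsxRNAi female library 3. The antimicrobial peptide list summed to 8.96 to 37.6 CPM in dsxRNAi females and 2.82 to 5.07 CPM in dsxRNAi males, without overlap. Drsl2, whose levels are given above, made up most of each dsxRNAi female sum. Of the 6 tested genes Drsl2 alone was called (16.7%), and 3 had a log2 difference above 0 and 3 below.

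Lipid digestion and breakdown genes were mostly lower in dsxRNAi females where called. Of 29 lipase and sterol uptake genes 9 were lower and 3 higher (41.4%, against 14.8% of all genes), with a median of -0.39, against -0.07 in controls. CG31091, a lipase gene (3R, 25899903 to 25902172), had 112, 91.1 and 91.6 CPM in dsxRNAi females, against 389.5, 777 and 317 CPM in dsxRNAi males (log2 -2.33 ± 0.28, adjusted p = 0.000786). CG8093, another lipase gene (2R), had 379.5, 485 and 419.9 CPM in dsxRNAi females, against 813, 961 and 743 CPM in dsxRNAi males (log2 -0.97 ± 0.12, adjusted p = 0.000558). Npc2f, of the family of sterol-binding NPC2 proteins (3R), had 167, 177 and 178 CPM in dsxRNAi females, against 329, 300.2 and 286 CPM in dsxRNAi males (log2 -0.81 ± 0.12, adjusted p = 0.00131). In all 3 genes every female library lay below every male library. The number higher was 0 without dsxRNAi female library 2, dsxRNAi female library 3, dsxRNAi male library 1 or dsxRNAi male library 2 and 1 without dsxRNAi male library 3, and it was 0 with scaling by relative log expression. Fatty acid oxidation genes had 5 of 21 lower and 0 higher (23.8%, median -0.19), among them the acyl-CoA dehydrogenase gene CG3902 (3L) with 165, 172 and 154 CPM in dsxRNAi females, against 243, 352 and 275 CPM in dsxRNAi males (log2 -0.83 ± 0.12, adjusted p = 0.00166). Without dsxRNAi female library 3 their count was 1, and 3 without dsxRNAi male library 2.

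Lipid carriers, storage and synthesis genes went in both directions. NLaz, an apolipoprotein D homologue that carries lipids (2L, 1359837 to 1361821), had 149, 160.3 and 164 CPM in dsxRNAi females, against 268, 413 and 256 CPM in dsxRNAi males (log2 -0.99 ± 0.17, adjusted p = 0.00379). In controls it was higher in females, with 179 ± 23.1 CPM in female controls and 90.2 ± 11 CPM in male controls (log2 0.99, adjusted p = 0.00187), and the interaction was called (log2 -1.97, adjusted p = 0.00308). LpR1, a lipophorin receptor (3R), was lower (log2 -0.49, adjusted p = 0.0245), but not without dsxRNAi female library 1 or 3 or dsxRNAi male library 1 or 3. The scavenger receptor relatives emp and Snmp1 were higher, by 0.71 and 0.47 on the log2 scale (adjusted p = 0.00962 and 0.00371). Of 18 lipid droplet and triglyceride genes 1 was called (5.56%, under the 14.8% of all genes). It was Seipin, needed for lipid droplet formation (X), with 77.5, 99.5 and 81.9 CPM in dsxRNAi females, against 125, 139 and 144 CPM in dsxRNAi males (log2 -0.65 ± 0.11, adjusted p = 0.00371). Of 16 fatty acid synthesis genes 2 were higher and 2 lower (25%). The number higher was 1 without dsxRNAi female library 2 or 3 or dsxRNAi male library 2. The number lower was 0 without dsxRNAi female library 1 or dsxRNAi male library 2. It was 1 without dsxRNAi female library 2 or 3 or dsxRNAi male library 1. bigmax, partner of the sugar-sensing factor Mondo (3R), had 33.9, 33.7 and 37 CPM in dsxRNAi females, against 24.8, 19.1 and 22.6 CPM in dsxRNAi males (log2 0.65 ± 0.11, adjusted p = 0.0025), and Desat1, the main fatty acid desaturase (3R), had 471, 541 and 490.2 CPM in dsxRNAi females, against 359, 344 and 386 CPM in dsxRNAi males (log2 0.46 ± 0.11, adjusted p = 0.0176). ATPCL, ATP citrate lyase, and pdgy, an acyl-CoA synthetase, were lower by log2 -0.49 and -0.62, and both lost the call without dsxRNAi female library 1 or dsxRNAi male library 2, among others.

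Gut hormone genes were lower in dsxRNAi females where called. Of 14 tested peptide hormone genes of enteroendocrine cells 5 were lower and 0 higher (35.7%), with a median of -0.24, and 9 were lower in control females. Their summed level was 546.5 to 584.9 CPM in dsxRNAi females and 590.5 to 662.3 CPM in dsxRNAi males. Dh31 (2L) had 11.2, 9.11 and 10.3 CPM in dsxRNAi females, against 20.6, 16.5 and 15.4 CPM in dsxRNAi males (log2 -0.78 ± 0.11, adjusted p = 0.00104), but it overlaps the abundant gene Bace on the same strand. sNPF (2L) had 2.72, 2.19 and 2.18 CPM in dsxRNAi females, against 3.61, 4.9 and 4.31 CPM in dsxRNAi males (log2 -0.85 ± 0.17, adjusted p = 0.00624). Tk, the tachykinin gene (3R), had 82.4, 70.3 and 79 CPM in dsxRNAi females, against 107, 95.5 and 97.9 CPM in dsxRNAi males (log2 -0.37 ± 0.09, adjusted p = 0.022), a call lost without dsxRNAi female library 2 or 3 or dsxRNAi male library 1. Tk overlaps Ect3 on the other strand, which was also lower (log2 -0.90, adjusted p = 0.00422). Without dsxRNAi female library 3 the count of lower hormone genes was 2. Among 21 genes of enteroendocrine identity and peptide processing 3 were lower and 1 higher, and 1 was lower without dsxRNAi female library 3. pros, the homeobox gene that marks these cells (3R), had 9.19, 9.75 and 9.31 CPM in dsxRNAi females, against 11.9, 11.4 and 13.1 CPM in dsxRNAi males (log2 -0.37 ± 0.09, adjusted p = 0.021), a call lost without dsxRNAi female library 1 or 3 or dsxRNAi male library 3, and Rph, a vesicle protein (X), had 1.65, 1.5 and 1.49 CPM in dsxRNAi females, against 4.12, 2.05 and 5.23 CPM in dsxRNAi males (log2 -1.29 ± 0.26, adjusted p = 0.0076). svr, a carboxypeptidase that trims peptides (X), was higher (log2 0.45, adjusted p = 0.00793). It overlaps CR44892 on the other strand, which was also higher (log2 1.03, adjusted p = 0.00239). No gene was called among 16 progenitor genes or 33 cell cycle and DNA replication genes. The progenitor list summed to 188.1 to 219.6 CPM in dsxRNAi females and to 164 to 203 CPM in dsxRNAi males.

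Some hormone-response and nutrient-signalling genes were higher in dsxRNAi females, most by small amounts. Of 22 ecdysone and juvenile hormone response genes 7 were higher and 0 lower (31.8%), with a median of 0.21. gce, a juvenile hormone receptor (X), had 129, 100.3 and 132 CPM in dsxRNAi females, against 79.7, 72.9 and 84.2 CPM in dsxRNAi males (log2 0.61 ± 0.10, adjusted p = 0.00279). Eip74EF, an ecdysone-induced transcription factor (3L), had 28.3, 31.3 and 33.1 CPM in dsxRNAi females, against 22.9, 23.8 and 22.5 CPM in dsxRNAi males (log2 0.42 ± 0.07, adjusted p = 0.00389), and was at 30.3 ± 1.92 CPM in female controls and 31.2 ± 1.79 CPM in male controls. Hr4, a nuclear receptor (X), had 0.975, 2.33 and 1.74 CPM in dsxRNAi females, against 0.648, 0.487 and 0.532 CPM in dsxRNAi males (log2 1.59 ± 0.33, adjusted p = 0.00838), with PIG-K (log2 0.51, adjusted p = 0.00329) on the other strand of its span. All 3 kept the call without each library, while the list count was 3 without dsxRNAi female library 3 or dsxRNAi male library 2 and 4 without dsxRNAi male library 1. Of 21 insulin and TOR pathway genes 6 were higher and 0 lower (28.6%, median 0.21), among them the receptor substrate chico, the kinase Akt1, the transcription factor foxo and the TOR regulator Sesn, by 0.34 to 0.46 on the log2 scale. That count was 0 without dsxRNAi female library 3, 1 without dsxRNAi male library 2, 2 without dsxRNAi male library 3 and 3 without dsxRNAi female library 2. In JAK-STAT and EGF receptor signalling 2 of 17 were higher, a share of 11.8% that lies under the 14.8% of all genes. They were the receptor dome and the ligand spi (log2 0.43 and 0.31). The count was 0 without dsxRNAi female library 1 or 3 or dsxRNAi male library 2 or 3. Without dsxRNAi female library 2 or dsxRNAi male library 1 it was 1.

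Detoxification and metal handling lists differed in how many of their genes were called. Of 34 glutathione transferases 14 were lower in dsxRNAi females and 1 higher, a share of 44.1% called, with a median of -0.50 (-0.52 in controls). GstD10 (3R) had 5.76, 8.35 and 6.35 CPM in dsxRNAi females, against 17.2, 42.1 and 19 CPM in dsxRNAi males (log2 -1.94 ± 0.31, adjusted p = 0.00371), and GstT3 (X) had 40.9, 49.9 and 41.4 CPM in dsxRNAi females, against 63.5, 85.5 and 63 CPM in dsxRNAi males (log2 -0.68 ± 0.12, adjusted p = 0.00475). In GstD10 dsxRNAi male library 2 held more than the other 2 males, but the sexes did not overlap. The number lower was 4 without dsxRNAi female library 3, 6 without dsxRNAi male library 2 and 8 without dsxRNAi female library 1, and the number higher was 0 without dsxRNAi female library 2, dsxRNAi female library 3 or dsxRNAi male library 2. Cytochromes P450 went in both directions, with 9 of 73 higher and 6 lower (20.5%) and a median of -0.01. Cyp18a1, which inactivates ecdysone (X), had 0.72, 1.37 and 1.39 CPM in dsxRNAi females, against 0.282, 0.333 and 0.177 CPM in dsxRNAi males (log2 2.11 ± 0.36, adjusted p = 0.00345), and Cyp4g15 (X) had 13.1, 12.9 and 13.5 CPM in dsxRNAi females, against 8.91, 8.69 and 9.19 CPM in dsxRNAi males (log2 0.56 ± 0.09, adjusted p = 0.00294). Of 15 UDP-glycosyltransferases 2 were higher (13.3%, near the 14.8% of all genes). The count was 1 without dsxRNAi female library 1 or 3 or dsxRNAi male library 1 or 2. Ugt86Dg (3R) had 6.85, 5.7 and 5.04 CPM in dsxRNAi females, against 2.79, 2.23 and 2.63 CPM in dsxRNAi males (log2 1.20 ± 0.17, adjusted p = 0.00109). Of 32 iron and metallothionein genes 5 were lower and 0 higher (15.6%, near the 14.8% of all genes), and 3 without dsxRNAi female library 1 or dsxRNAi female library 3. Mvl, a transporter of divalent metals (3R), had 105, 125 and 116 CPM in dsxRNAi females, against 269.5, 185 and 209.9 CPM in dsxRNAi males (log2 -0.94 ± 0.13, adjusted p = 0.00116), and it was at 96.3 ± 11.5 CPM in female controls and 102 ± 8.3 CPM in male controls. The ferritin genes Fer2LCH and Fer1HCH, which overlap on opposite strands, had log2 differences of -0.68 and -0.54, and the second lost its call without dsxRNAi female library 1 or 3 or dsxRNAi male library 2. Of 18 heat shock genes 2 were lower and 1 higher (16.7%, near the 14.8% of all genes). Hsp60A, a mitochondrial chaperone (X), was lower with 195, 191 and 159 CPM in dsxRNAi females, against 263, 287 and 247 CPM in dsxRNAi males (log2 -0.55 ± 0.09, adjusted p = 0.00236). Also lower was Hsc70-3, the chaperone of the endoplasmic reticulum (X, log2 -1.02), which lost its call without dsxRNAi male library 2. Hsp70Bb, one of several near-identical copies, was higher (log2 0.35), but not when any library other than dsxRNAi male library 2 was left out.

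Marker lists of other cells that a dissected gut can hold are given with their counts and summed levels, and their part in the results above was not tested. Of 22 visceral muscle genes 2 were lower and 0 higher (9.09%, median -0.11), TpnC73F and Mlp60A (log2 -0.41 and -0.39), and 0 without dsxRNAi female library 2, dsxRNAi female library 3 or dsxRNAi male library 2 and 1 without dsxRNAi male library 1. The list summed to 4555 to 5911 CPM in dsxRNAi females and 4571 to 5038 CPM in dsxRNAi males. Trachea had 2 of 7 higher (28.6%, median 0.30), trh and Gasp (log2 0.72 and 0.48), and 0 without dsxRNAi male library 1 and 1 without dsxRNAi female library 1, dsxRNAi female library 2, dsxRNAi female library 3 or dsxRNAi male library 2. The list summed to 28.4 to 31.4 CPM in dsxRNAi females and 21.5 to 26.7 CPM in dsxRNAi males, without overlap. Fat body and hemocyte genes had 2 of 12 higher (16.7%, median 0.59), PPO2 and NimC1, and 0 without dsxRNAi female library 2, dsxRNAi female library 3, dsxRNAi male library 2 or dsxRNAi male library 3 and 1 without dsxRNAi male library 1. They summed to 13.7 to 28.3 CPM in dsxRNAi females and 10.4 to 14.5 CPM in dsxRNAi males. No gene was called among 14 Malpighian tubule, 9 neuron, 8 copper cell, 8 ovary or 20 vacuolar proton pump genes. The 52 accessory gland genes other than Est-6, BG642312 and antr held 10 to 18 counts in the dsxRNAi female libraries and 13 to 24 in the dsxRNAi males. In the controls, male library 1 held 11562 counts of these genes, against 27 and 31 in control male libraries 2 and 3. The part of this tissue in the control levels was not tested. Of the 3 accessory gland genes tested 1 was called (33.3%). Est-6 was called lower in dsxRNAi females (0.627, 0.81 and 0.273 CPM in dsxRNAi females, against 3.24, 1.49 and 4.52 CPM in dsxRNAi males; adjusted p = 0.0411), but not when any library other than dsxRNAi male library 2 was left out. The 13 testis genes other than topi and gdl held 0 to 2 counts in dsxRNAi females and 3 to 8 in dsxRNAi males. Of 2 testis genes tested topi was called higher at an adjusted p of 0.0498 and lost the call without any 1 library. Regional transcription factors had 2 of 22 higher (9.09%, under the 14.8% of all genes), and 1 without dsxRNAi female library 3. They were cad and the homeotic gene Antp (11.4, 13 and 11 CPM in dsxRNAi females, against 9.05, 6.9 and 7.12 CPM in dsxRNAi males, log2 0.62 ± 0.13, adjusted p = 0.0098). Among genes marked in the genotypes w, an eye pigment transporter (X), was lower with 7.82, 7.22 and 6.43 CPM in dsxRNAi females, against 13.9, 13.3 and 11.1 CPM in dsxRNAi males (log2 -0.83 ± 0.15, adjusted p = 0.00418), where the allele on the X of the males is not stated, and y, a cuticle pigment gene, was not called (0.279, 0.417 and 0.199 CPM in dsxRNAi females, against 0.479, 0.282 and 0.295 CPM in dsxRNAi males; adjusted p = 0.816). v did not pass the expression filter. Of 34 proteasome genes 3 were lower (8.82%, under the 14.8% of all genes), by log2 -0.20 to -0.26. The count was 0 without dsxRNAi female library 2 or 3 or dsxRNAi male library 2, and 1 without dsxRNAi female library 1.

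The sex difference under dsxRNAi was then set beside that of the controls, which rests on other libraries. These control libraries were uneven as well. Control female library 1 differed from control female libraries 2 and 3 with a chi-square per degree of freedom of 173 and 97.4. Between control female libraries 2 and 3 it was 65.5. Control male library 1 held the accessory gland counts given above. As given above, the dsx levels of females of both labels overlapped, so the directions below rest on the labels. The control contrast called 1937 genes (20%), 1039 higher in control females (10.7%) and 898 lower (9.27%). A gene was called in both contrasts in 745 cases, which is 51.9% of the calls under dsxRNAi and 38.5% of those in controls, and 730 of the 745 had the same direction. A call in only one of the contrasts does not show that the sex difference itself differed. The interaction, (dsxRNAi females minus dsxRNAi males) minus (control females minus control males), was called for 78 genes (0.805%), 25 with a positive term (0.258%) and 53 with a negative one (0.547%), with 1387 genes at an unadjusted p under 0.05. By size alone, regardless of direction, 53 of the 78 genes had a smaller sex difference under dsxRNAi than in controls and 25 a larger one. In 51 of the 78 the estimated differences had opposite signs in the 2 contrasts, whether called there or not. The number was 341 in DESeq2. It ranged from 33 to 127 when each library was left out in turn, with the lowest count without dsxRNAi female library 3, 34 to 36 without control female library 3, control male library 2 or control male library 3, 44 to 45 without dsxRNAi female library 1, dsxRNAi male library 1 or control male library 1, 119 without control female library 1 and 127 without dsxRNAi male library 2.

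Among genes with a negative interaction, several were female-high in controls and not under dsxRNAi. Bace, an aspartic protease and one of the most abundant transcripts (2L), had 10748, 11301 and 10446 CPM in dsxRNAi females, against 15824, 15576 and 14636 CPM in dsxRNAi males (log2 -0.50 ± 0.20, adjusted p = 0.107, not called), beside 10687 ± 2559 CPM in female controls and 3002 ± 794 CPM in male controls (log2 1.83, adjusted p = 0.000147; interaction log2 -2.33, adjusted p = 0.00308). Control males held the lowest levels of the 4 groups and dsxRNAi males the highest. CG5770, whose role is not stated here (2R), had 110.3, 104 and 124 CPM in dsxRNAi females, against 83.4, 89.6 and 138 CPM in dsxRNAi males (log2 0.12, adjusted p = 0.682), beside 113 ± 13.2 CPM in female controls and 18.9 ± 2.19 CPM in male controls (interaction log2 -2.46, adjusted p = 0.00257). Zip42C.2, of the zinc transporter family (2R), had 10.1, 9.43 and 6.15 CPM in dsxRNAi females, against 7.1, 6.41 and 5.49 CPM in dsxRNAi males (log2 0.43, adjusted p = 0.283), beside 27.4 ± 6.67 CPM in female controls and 2.35 ± 0.739 CPM in male controls (interaction log2 -3.11, adjusted p = 0.00311). CG4563 (2R) had 4.71, 8.18 and 7.54 CPM in dsxRNAi females, against 14, 12.5 and 7.86 CPM in dsxRNAi males (log2 -0.75, adjusted p = 0.197), beside 13 ± 6.8 CPM in female controls and 0.769 ± 0.0992 CPM in male controls (interaction log2 -4.82, adjusted p = 0.00386). PGRP-SC1a and PGRP-SC1b were lower in dsxRNAi females than in dsxRNAi males but not called in controls, where PGRP-SC1a had 18.7 ± 0.376 CPM in female controls and 12.7 ± 1.82 CPM in male controls (interaction log2 -3.92, adjusted p = 0.00308). CG18179 was lower in females of both genotypes, and its difference of -4.76 under dsxRNAi exceeded that of -2.48 in controls (interaction log2 -2.28, adjusted p = 0.0327). This last interaction was lost without dsxRNAi female library 1 or 3, control female library 2 or 3, or any 1 of the control male libraries.

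Among genes with a positive interaction, most of those named were male-high in controls. CG15263, whose role is not stated here (2L), had 254, 268 and 239 CPM in dsxRNAi females, against 282, 448 and 249 CPM in dsxRNAi males (log2 -0.36, adjusted p = 0.305), beside 223 ± 64.8 CPM in female controls and 1381 ± 111 CPM in male controls (interaction log2 2.27, adjusted p = 0.00862). CG10178 (2L) had 12.7, 15 and 12.5 CPM in dsxRNAi females, against 10.1, 11.8 and 11.6 CPM in dsxRNAi males (log2 0.26, adjusted p = 0.0601), beside 14.3 ± 0.45 CPM in female controls and 29.3 ± 0.72 CPM in male controls (interaction log2 1.30, adjusted p = 0.00132). LRP1, of the low-density lipoprotein receptor family (2R), was called in both contrasts in opposite directions, with 9.61, 9.92 and 10.1 CPM in dsxRNAi females, against 5.5, 6.72 and 5.94 CPM in dsxRNAi males (log2 0.71 ± 0.12, adjusted p = 0.00296), beside 9.75 ± 1.46 CPM in female controls and 14.4 ± 1.19 CPM in male controls (log2 -0.57, adjusted p = 0.00431; interaction log2 1.27, adjusted p = 0.00311). In all, 15 genes were called in opposite directions in the 2 contrasts, and 13 of them had a called interaction. They include NLaz and mt:ND2, given above, and CG15170 (2L), with 67.3, 75.6 and 73.2 CPM in dsxRNAi females, against 98.6, 105 and 96.2 CPM in dsxRNAi males (log2 -0.47 ± 0.09, adjusted p = 0.00624), beside 43.3 ± 5.51 CPM in female controls and 28.6 ± 1.79 CPM in male controls (interaction log2 -1.07, adjusted p = 0.00308).

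**Figure D4:**
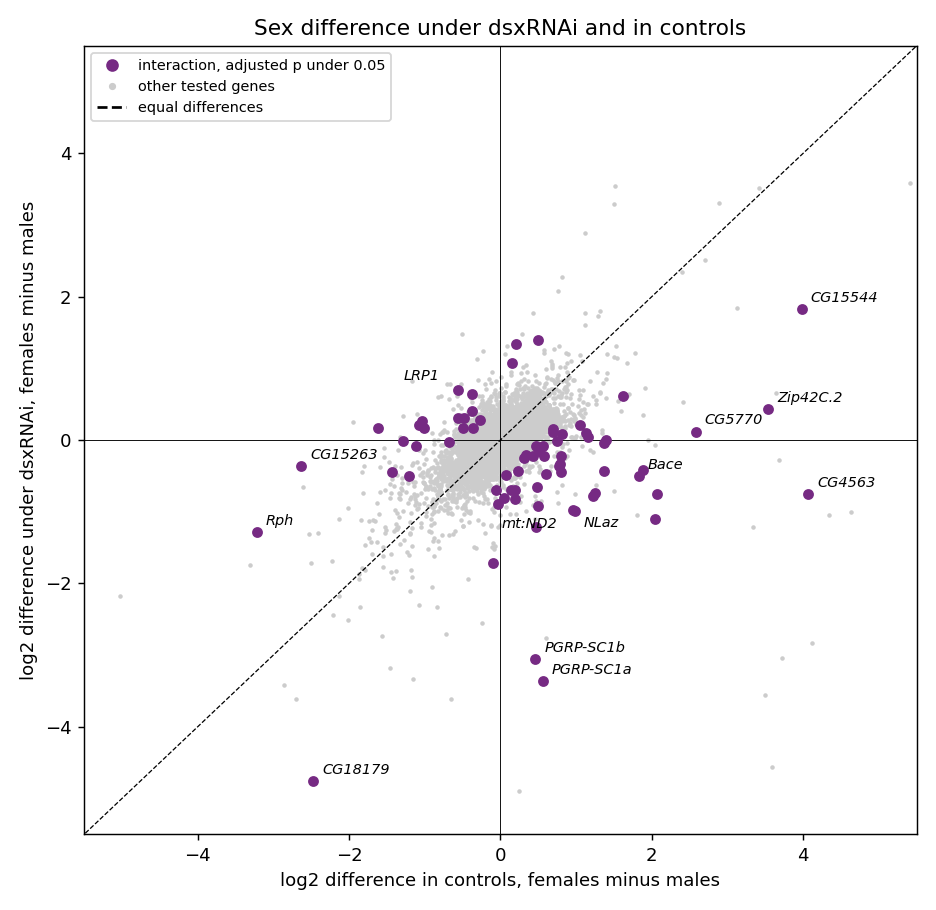
Log2 difference of females minus males under dsxRNAi (vertical axis) against the same in controls (horizontal axis) for 7670 tested genes whose mean log2 CPM reached 1. Purple points are the 72 genes of this level with a called interaction, the dashed line marks equal differences, and 12 genes lie outside the axes. NLaz, mt:ND2 and Bace lie to the right below 0, and LRP1 lies to the left above 0.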

How the data were processed

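Midgut poly-A RNA of 4 groups of 3 libraries was sequenced as read pairs of 100 bp, from 200 ng of RNA with a strand-specific kit, per the labels' protocols. The table deposited by the authors holds raw counts of reads for each gene. Per the submitters' processing notes, TopHat2 2.0.11, featureCounts and dm6 were used. Neither the strand setting nor the annotation behind the counts is given in the sources used here, so overlapping genes and near-identical copies are named as uncertain. The 171 rows whose FlyBase identifier matched no symbol hold 2.17% of the counts and were tested but not named. Positions come from an Ensembl annotation on dm6 coordinates, where 17252 rows were found.

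Counts were filtered (edgeR filterByExpr, minimum count 10), scaled by TMM and fitted as 4 group means over all 12 libraries with edgeR 4.0.16 in R 4.3.3, with a robust quasi-likelihood test and a prior count of 0.125 for log2 differences. DESeq2 1.42.0 was an alternative. Ratios of genes near 0 use summed counts and exact 95% intervals, which cover counting error only. Python 3.11.15 with matplotlib 3.10.9 drew the figures. The fit was also run on simulated counts with known differences, drawn with its own estimate of the spread. That run cannot show whether the estimate suits these libraries, and no result here rests on it. Depth of 36212113 to 45068874 counts per library left a median of 526 to 693 counts per tested gene in the dsxRNAi libraries.

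Genes were named by a rule: called members of the sex determination, dosage compensation and yolk lists, the 12 largest differences in each direction among calls whose mean log2 CPM reached 1, with no overlap of the libraries, up to 4 called members of each of 49 gene lists, up to 8 interaction terms in each direction, up to 6 genes called in opposite directions, and the genes marked or driven. Fewer are printed. Members, lists and alternatives were chosen with earlier results of these data known. The alternatives were other scalings, filters, tools and thresholds, a replicate block, a fit of only the groups compared, and each library left out in turn. A planned count of promoter motifs was not run, since promoter sequences were not used here.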

Additional observations from a re-analysis of the deposited data

Results flagged for a closer look

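For 24 named genes the sex difference differed between dsxRNAi and control midguts by the interaction test (edgeR, adjusted p under 0.05), with no explanation weighed. A negative term means that the log2 difference of females minus males was lower under dsxRNAi. The terms were -4.82 for CG4563, -3.92 for PGRP-SC1a, -3.52 for PGRP-SC1b, -3.14 for CG16775, -3.11 for Zip42C.2, -2.82 for CG4991, -2.46 for CG5770 and -2.33 for Bace. They were -2.28 for CG18179, -2.16 for CG15544, -1.97 for NLaz, -1.68 for LysB, -1.42 for mt:ND2, -1.14 for CG5377 and -1.07 for CG15170. Positive terms were 2.27 for CG15263, 1.93 for Rph, 1.79 for danr, 1.30 for CG10178, 1.28 for CG5171, 1.28 for CG13117, 1.27 for LRP1, 1.18 for Traf4 and 0.55 for CG9171. Of the 24 terms 12 kept the call without each of the 12 libraries in turn. These were Bace, NLaz, both PGRP-SC1 copies, CG4563, Zip42C.2, CG5770, CG15170, mt:ND2, CG15263, CG10178 and LRP1.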

How the results depend on the processing

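For the sex difference under dsxRNAi, the 1436 calls became 455 at an adjusted p under 0.01 and 234 with an added log2 difference of at least 1, and ran from 637 to 1145 when each library was left out in turn. The 752 calls higher in dsxRNAi females became 498 in a fit of only the groups compared, 231 at an adjusted p under 0.01 and 90 with the added difference, and ran from 304 to 628 without each library. The 684 calls lower became 224 and 144 under the same thresholds and ran from 308 to 609. The 1937 calls in controls became 1018 and 359. The 78 interaction calls became 341 in DESeq2, 22 at an adjusted p under 0.01 and 48 with the added difference, and ran from 33 to 127 without each library. The other planned settings kept these counts within 1.5 times.

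Same-numbered dsxRNAi female and male libraries had correlated deviations of -0.05 to 0.07. Over all 4 groups same-numbered libraries ranged from -0.30 to 0.21, with 6 of 18 over 0.1, among them all 3 of dsxRNAi females with control males (0.157, 0.156 and 0.208), so the numbers are not taken as pairs for either test. With the replicate number as a block 1468 genes were called under dsxRNAi, 1304 of them among the 1436, and 67 for the interaction. Scaling moved the median of all genes by under 0.02. Of 2015 values of named genes under the alternatives 1741 kept their side of the threshold, 272 lost the call, 2 gained it and none changed sign. Of 142 named calls under dsxRNAi 77 held without each library. At a mean log2 CPM of 0 or less 4.40% of 1410 genes were called, and the part of depth in this was not tested.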
